A study of Homo sapiens with 6 samples.

Results

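The repressor arm of the circadian clock was examined in LX-2 cells after silencing of OGT, the transferase of O-linked N-acetylglucosamine (O-GlcNAc) onto proteins. It comprised 10 genes, namely NR1D1 and NR1D2, BHLHE40 and BHLHE41, PER1, PER2 and PER3, CRY1 and CRY2, and CIART. These genes were chosen by their role in the clock, but also with the siOGT against siControl log2 fold changes of the same libraries in view. That of NR1D1 was the highest of the 10 and ranked 287 by absolute size among the 14853 genes tested. Their differences between the groups are therefore given as a description, and the p-values of these differences are not printed. The calls and confidence intervals given for these genes below come from tests on the same libraries. They are thus part of the description and not independent evidence of a difference. All 10 genes were among the 16907 in the files, and all 10 were among the 14853 that passed the filter on low counts (a total of at least 10 over the libraries).

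LX-2 is 1 human cell line of hepatic stellate origin, and stellate cells are the source of collagen-producing myofibroblasts in injured liver. Both groups were transfected with small interfering RNA at 20 nM and harvested after 72 h, 3 libraries with a control sequence (siControl) and 3 with a sequence against OGT (siOGT). Libraries that share a replicate number form a pair, and the study's methods describe 3 independent experiments. Cells were taken at 1 time point, so that the phase and amplitude of a daily cycle were not measured. RNA was measured in bulk, in which fewer cells of a type and less RNA per cell cannot be told apart.

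In the mammalian clock, CLOCK and BMAL1 bind as a pair to E-box sequences and activate transcription, including that of genes whose products repress them. PER and CRY proteins form complexes that inhibit CLOCK and BMAL1, whereas BHLHE40 and BHLHE41 compete for E-boxes and CIART binds the activators. NR1D1 and NR1D2, also known as REV-ERBα and REV-ERBβ, are haem-binding nuclear receptors that recruit the NCOR and HDAC3 corepressor to ROR response elements, among them those of BMAL1. In liver, this loop is known for setting daily rhythms of lipid and glucose metabolism.

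Promoter sequences of 6 of the genes are shown first, namely those of the receptor pair, the BHLHE pair, PER1 and CIART. A link between these sequences and the values that follow was not tested. Each run is read 5′ to 3′ on the gene's strand and ends at the RefSeq transcription start (GRCh38.p14), or where an exon of the same gene in GENCODE 44 begins. Capitals mark the E-box CACGTG, the variant CACGTT (E'-box), the ROR element TAGGTCA or TGGGTCA, and the D-box TTANNTAA, on either strand. The stretches are chr17:40100590-40100839 (minus strand) for NR1D1, chr3:23945871-23946120 (plus) for NR1D2, chr3:4979187-4979436 (plus) for BHLHE40, chr12:26125038-26125287 (minus) for BHLHE41, chr17:8152436-8152654 (minus) for PER1 and chr1:150282304-150282542 (plus) for CIART.
NR1D1: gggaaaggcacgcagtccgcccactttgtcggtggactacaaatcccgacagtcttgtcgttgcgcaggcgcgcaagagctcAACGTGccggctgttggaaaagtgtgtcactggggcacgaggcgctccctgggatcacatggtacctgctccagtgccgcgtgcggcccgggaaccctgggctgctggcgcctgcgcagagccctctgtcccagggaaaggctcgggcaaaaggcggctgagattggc
NR1D2: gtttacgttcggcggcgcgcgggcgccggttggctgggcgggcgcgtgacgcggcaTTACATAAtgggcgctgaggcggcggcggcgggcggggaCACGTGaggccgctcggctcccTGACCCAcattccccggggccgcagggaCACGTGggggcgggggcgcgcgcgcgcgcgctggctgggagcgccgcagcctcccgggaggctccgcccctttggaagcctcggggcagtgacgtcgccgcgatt
BHLHE40: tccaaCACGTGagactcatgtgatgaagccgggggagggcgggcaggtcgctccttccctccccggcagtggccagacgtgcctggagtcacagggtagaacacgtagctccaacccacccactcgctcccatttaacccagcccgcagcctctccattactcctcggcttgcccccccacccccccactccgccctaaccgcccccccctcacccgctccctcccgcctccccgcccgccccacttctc
BHLHE41: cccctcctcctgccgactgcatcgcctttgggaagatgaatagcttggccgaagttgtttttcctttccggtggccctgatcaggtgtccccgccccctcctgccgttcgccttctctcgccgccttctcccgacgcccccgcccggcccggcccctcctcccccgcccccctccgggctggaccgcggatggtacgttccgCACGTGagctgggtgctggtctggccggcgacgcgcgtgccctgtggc
PER1: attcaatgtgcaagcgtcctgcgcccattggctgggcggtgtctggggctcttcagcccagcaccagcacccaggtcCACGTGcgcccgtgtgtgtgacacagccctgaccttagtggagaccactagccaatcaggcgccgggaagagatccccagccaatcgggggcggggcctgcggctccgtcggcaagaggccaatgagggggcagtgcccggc
CIART: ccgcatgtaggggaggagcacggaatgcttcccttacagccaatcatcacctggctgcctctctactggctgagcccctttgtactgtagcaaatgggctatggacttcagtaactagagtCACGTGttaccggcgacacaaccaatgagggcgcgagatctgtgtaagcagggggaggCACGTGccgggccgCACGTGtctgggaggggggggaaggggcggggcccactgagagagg

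The promoter of CIART held 3 E-boxes, starting 129, 71 and 57 bases before the start. The second RefSeq start of NR1D2, which lies inside the gene, had 2 E-boxes with a ROR element between them and a D-box further upstream, starting 155, 105, 133 and 194 bases before the start. The window before the first RefSeq start of NR1D2 (chr3:23945036-23945285), where the gene begins, is not printed and had no match. NR1D1 had an E'-box starting 168 bases before its start and no other match. BHLHE41 carried 1 E-box near its start, the first base 48 bases before it, whereas the E-box of BHLHE40 lay 245 bases before the start. The E-box of PER1 began 173 bases before its RefSeq start, and the start itself lies within the longer gene model of GENCODE 44.

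Over the 250 bases before each of the 13 RefSeq starts of the 10 genes, an E-box occurred in 5 genes and an E'-box in PER2, CRY1, CRY2 and NR1D1. All but PER3 thus had an E-box or E'-box, 9 of 10 genes, against 12.7% of the 27305 genes in the RefSeq table. Among all 35116 windows of this length, 6.34% held an E-box, 4.55% an E'-box, 4.82% a ROR element, 5.23% a D-box and 1.65% a cAMP response element (TGACGTCA). A ROR element was present in NR1D2 and CRY2, a D-box in NR1D2 and in PER3 (2 copies), and the cAMP response element in 0 of the 10 genes. These matches describe letters in the windows, and binding at them was not measured here.

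OGT itself was first examined to check the labels. It had 177, 137 and 121 CPM (counts relative to the library total, scaled by TMM factors) in siControl 1 to 3, and 39.9, 27.0 and 29.2 CPM in siOGT 1 to 3. All siOGT libraries were below all siControl libraries, with a log2 fold change of -2.18 (SE 0.073). Libraries held between 25996765 and 27966788 rounded counts. Of the 10 stellate and myofibroblast markers listed, 9 were in the files, all but DCN. Their summed levels were 7850 to 9460 CPM in siControl and 7510 to 9360 CPM in siOGT. Most of this sum came from VIM, COL1A1 and SPARC, with siControl means of 3200, 2660 and 1470 CPM. Of these 9 markers, edgeR called 4 lower (COL1A1, COL1A2, COL3A1 and PDGFRB), 2 higher (TAGLN and SPARC) and 3 in neither direction (ACTA2, VIM and LUM). ACTA2 was low, at 4.83 to 9.69 CPM over all libraries. LUM, a small proteoglycan of stellate cells, was at or below 0.157 CPM in every library. Hepatocyte markers summed to 3.34 to 4.44 CPM and cholangiocyte markers to 4.7 to 8.13 CPM over all libraries, and none of either list was called. VWF, an endothelial gene at 0.666 to 4.01 CPM, was called lower (log2 fold change -0.93, edgeR adjusted p-value 0.0108), a call lost without replicate 2, with DESeq2 and without the replicate block. Endothelial markers summed to 3.18 to 7.86 CPM in siControl and 3.0 to 5.72 CPM in siOGT. The leukocyte list summed to 124 to 154 CPM in siControl and 169 to 202 CPM in siOGT, nearly all of it CD68, a lysosomal protein whose gene was called higher (log2 fold change 0.46, edgeR adjusted p-value 9.472e-04), though not by edgeR without the replicate block. PTPRC, which defines leukocytes, was at or below 0.855 CPM in every library. The part of CD68, VWF and the collagen genes in the results below was not tested.

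Clock repressor genes were then compared between siOGT and siControl. NR1D1 and BHLHE41 rose by more than 2-fold, PER1, PER2, CIART and CRY2 rose by smaller amounts, and NR1D2 rose least among the genes called. BHLHE40, PER3 and CRY1 were not called. A gene is called where the edgeR quasi-likelihood F test, fitted over all genes with the replicate number as a block, gave an adjusted p-value of at most 0.05. Thus 7 of the 10 genes were called, 7 higher and 0 lower, where 25.4% of all genes tested were called, 12.7% higher and 12.7% lower. The median log2 fold change was 0.47 over the 10 genes and 0.01 over all genes. In 6 of the 10, the 3 siOGT libraries all lay above the 3 siControl libraries in CPM, which was the case for 12.1% of all genes. Because the genes were chosen with this contrast known, the calls only describe the values, and nothing is read from these shares.

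**Figure D1:**
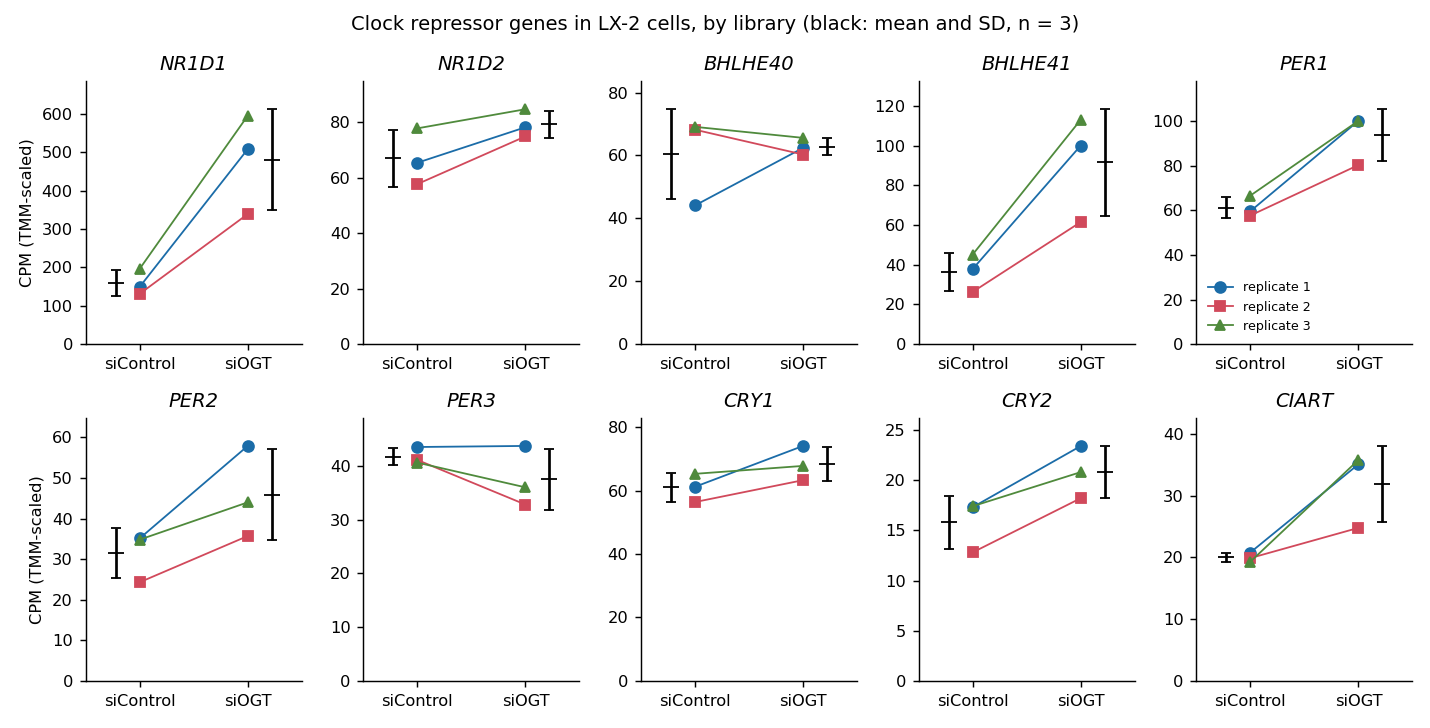
Level of each clock repressor gene in each library, in CPM scaled by TMM factors on an axis from 0. Lines join libraries with the same replicate number, and black bars give the mean and SD of 3 libraries. NR1D1 and BHLHE41 are higher in all siOGT libraries, whereas lines of BHLHE40 cross.

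Among the nuclear receptors, NR1D1 (chromosome 17, 40092793 to 40100589, minus strand, hg38) had 149, 131 and 196 CPM in siControl 1 to 3. In siOGT 1 to 3 it had 508, 339 and 595 CPM. The lowest siOGT library was above the highest siControl library, and replicate 2 was the lowest of both groups. The siControl mean was 159 ± 33.3 CPM, against 481 ± 131 CPM for siOGT (SD over 3 libraries). This gave a log2 fold change of 1.58 (SE 0.077, 95% confidence interval 1.42 to 1.74), or 2.99-fold. The log2 ratios within pairs 1 to 3 were 1.77, 1.37 and 1.60. This gene lies tail to tail with THRA, a thyroid hormone receptor gene on the opposite strand, and shares 473 of its 2630 exonic bases with it. Counting took strand into account per the study's methods. THRA had 61.3, 65.4 and 62.9 CPM in siControl and 50.8, 62.9 and 48.3 CPM in siOGT, the opposite direction (log2 fold change -0.24, edgeR adjusted p-value 0.0257). THRA lost its call without replicate 1, without replicate 3, with DESeq2 and without the replicate block.

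NR1D2, the paralog of NR1D1, had 65.4, 57.7 and 77.8 CPM in siControl 1 to 3 and 78.2, 74.9 and 84.7 CPM in siOGT 1 to 3. Its groups overlapped, since siControl 3 lay above siOGT 2, but siOGT was higher within each of the 3 pairs. Fitted over the pairs, the difference was 0.25 on the log2 scale (SE 0.069, 95% confidence interval 0.10 to 0.40). This call was lost without replicate 1, without replicate 2 and without the replicate block. Per base of transcript, NR1D1 was 4.53, 4.53 and 5.0 times as abundant as NR1D2 in siControl 1 to 3, and 12.9, 8.99 and 14 times in siOGT 1 to 3. The mean ratio was thus 4.69 in siControl and 12 in siOGT, with no overlap between the groups.

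BHLHE41 and BHLHE40, which encode basic helix-loop-helix repressors also known as DEC2 and DEC1, also differed in their fitted change. BHLHE41 (chromosome 12, 26120030 to 26125037, minus strand) had 37.8, 26.3 and 45.1 CPM in siControl 1 to 3 and 100, 61.5 and 113 CPM in siOGT 1 to 3. All siOGT libraries were above all siControl libraries, and replicate 2 was again the lowest in each group. It rose by 1.32 on the log2 scale (SE 0.069, 95% confidence interval 1.18 to 1.47), with log2 ratios of 1.40, 1.22 and 1.32 in the pairs. On the opposite strand SSPN covers 4.2% of its exonic bases, with 61 to 139 counts per library where BHLHE41 had 669 to 3032. SSPN was called higher as well (log2 fold change 0.60, edgeR adjusted p-value 0.0372), a call lost without replicate 2 (0.34), without replicate 3, with DESeq2 and without the replicate block.

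BHLHE40 (chromosome 3, 4979437 to 4985323, plus strand) had 44.1, 68.2 and 69.1 CPM in siControl 1 to 3, and 62.4, 60.3 and 65.6 CPM in siOGT 1 to 3. The siControl 1 library stood below the other 5, and the pairs did not share a direction, with log2 ratios of 0.50, -0.18 and -0.07. Its fitted value was 0.08 on the log2 scale (SE 0.097, 95% confidence interval -0.13 to 0.28), which turned to -0.13 without replicate 1. Per base of transcript there were 0.721, 0.324 and 0.55 copies of BHLHE41 for each of BHLHE40 in siControl 1 to 3, and 1.35, 0.858 and 1.45 in siOGT 1 to 3. The mean ratio was 0.532 in siControl and 1.22 in siOGT, so that the order of the paralogs was inverted in siOGT 1 and 3.

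**Figure D2:**
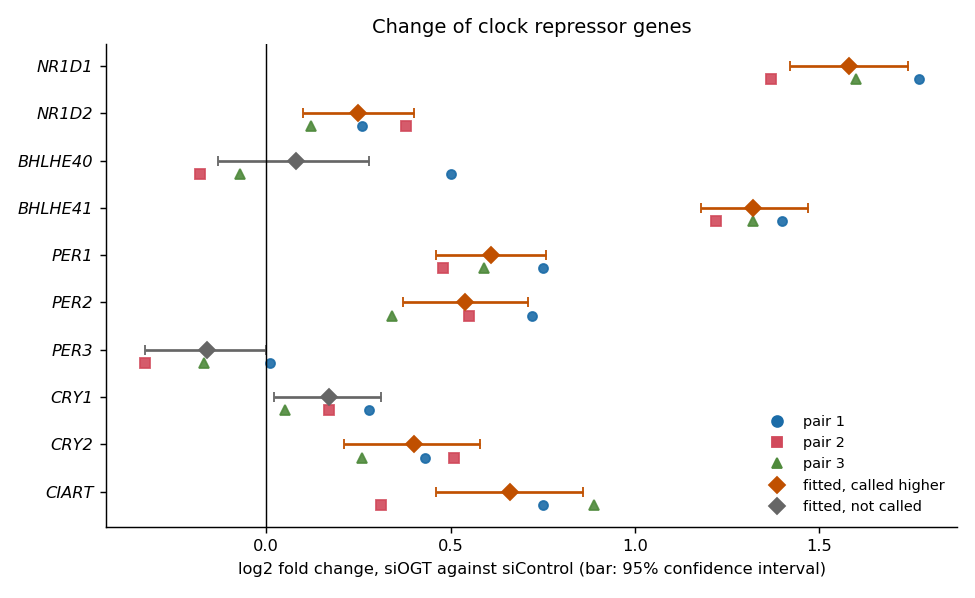
Log2 fold change of each clock repressor gene, siOGT against siControl. Diamonds give the value fitted by edgeR with its 95% confidence interval, and smaller symbols the ratio within each pair of libraries. NR1D1 (1.58) and BHLHE41 (1.32) stand apart from their paralogs NR1D2 (0.25) and BHLHE40 (0.08).

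Within the PER genes, whose products form the inhibitory complex with CRY proteins, PER1 and PER2 rose and PER3 was not called. PER1 had 59.5, 57.6 and 66.5 CPM in siControl 1 to 3 and 100, 80.2 and 100 CPM in siOGT 1 to 3. The groups did not overlap, with a fitted log2 fold change of 0.61 (SE 0.070, 95% confidence interval 0.46 to 0.76). PER2 had 35.1, 24.3 and 34.8 CPM in siControl and 57.9, 35.7 and 44 CPM in siOGT. Its siOGT 2 library was barely above siControl 1, although siOGT was higher in each pair. PER2 rose by 0.54 on the log2 scale (SE 0.080, 95% confidence interval 0.37 to 0.71), not called without the replicate block.

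PER3, by contrast, had 43.5, 41.1 and 40.6 CPM in siControl 1 to 3 and 43.7, 32.8 and 36.0 CPM in siOGT 1 to 3. Replicate 1 was at the same level in both groups, and siOGT was lower in the other two pairs. The siOGT level was 0.893 times that of siControl (95% confidence interval 0.798 to 0.999), which did not reach the adjusted threshold. UTS2, which overlaps 10.7% of the exonic bases of PER3 on the opposite strand, had between 0 and 2 counts per library.

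CRY1 and CRY2 encode cryptochromes, the partners of PER that contact CLOCK and BMAL1. CRY1 had 61.2, 56.4 and 65.3 CPM in siControl 1 to 3 and 74.1, 63.3 and 67.8 CPM in siOGT 1 to 3, with overlapping groups. Its log2 fold change of 0.17 (SE 0.069, 95% confidence interval 0.02 to 0.31) was not called, but was called without replicate 3 (0.22). CRY2 had 17.3, 12.8 and 17.4 CPM in siControl and 23.4, 18.2 and 20.8 CPM in siOGT, where the lowest siOGT library was just above the highest siControl library. The log2 fold change of CRY2 was 0.40 (SE 0.089, 95% confidence interval 0.21 to 0.58), and it was not called without the replicate block.

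CIART, a repressor that acts on CLOCK and BMAL1, had 20.8, 19.9 and 19.3 CPM in siControl 1 to 3. In siOGT 1 to 3 it had 35.1, 24.8 and 35.8 CPM, with replicate 2 again lower than the other two but above every siControl library. The mean went from 20.0 ± 0.748 to 31.9 ± 6.18 CPM (SD over 3 libraries). It rose by 0.66 on the log2 scale (SE 0.097, 95% confidence interval 0.46 to 0.86). It was not called by edgeR without the replicate block.

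Variation between the independent experiments was next examined, since it is separate from the contrast between groups. The edgeR test of the replicate number called NR1D1 (adjusted p-value 1.839e-04), BHLHE41 (1.117e-05), PER2 (7.738e-04), CRY2 (0.0272) and NR1D2 (0.0362). These were 5 of 10 genes, against 23.6% of all genes tested. DESeq2 called 3 of the 10, and its share over all genes is not given here, so nothing is read from this count. BHLHE40, PER1, PER3, CRY1 and CIART had adjusted p-values of 0.0812, 0.068, 0.118, 0.226 and 0.142 in the edgeR test.

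Within each group, replicate 2 tended to be the lowest library. It was the lowest in both groups for 7 of the 10 genes, namely NR1D1, NR1D2, BHLHE41, PER1, PER2, CRY1 and CRY2, which was the case for 18.4% of all genes. This count was made after the values had been seen. BHLHE41 in replicate 2 was 0.43 below the mean log2 CPM of siControl and 0.53 below that of siOGT. For NR1D1, replicate 2 lay 0.25 and 0.47 below these means, and replicate 3 lay 0.32 and 0.35 above them. Spread between libraries in siOGT was 27.2% of the mean for NR1D1 and 29.3% for BHLHE41, against 4.22% for BHLHE40 and 6.27% for NR1D2 (coefficient of variation, n = 3). In siControl, these coefficients were 21.0% for NR1D1, 26.1% for BHLHE41, 23.4% for BHLHE40 and 15.2% for NR1D2. There, CIART and PER3 varied least, with coefficients of 3.74% and 3.71%.

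**Figure D3:**
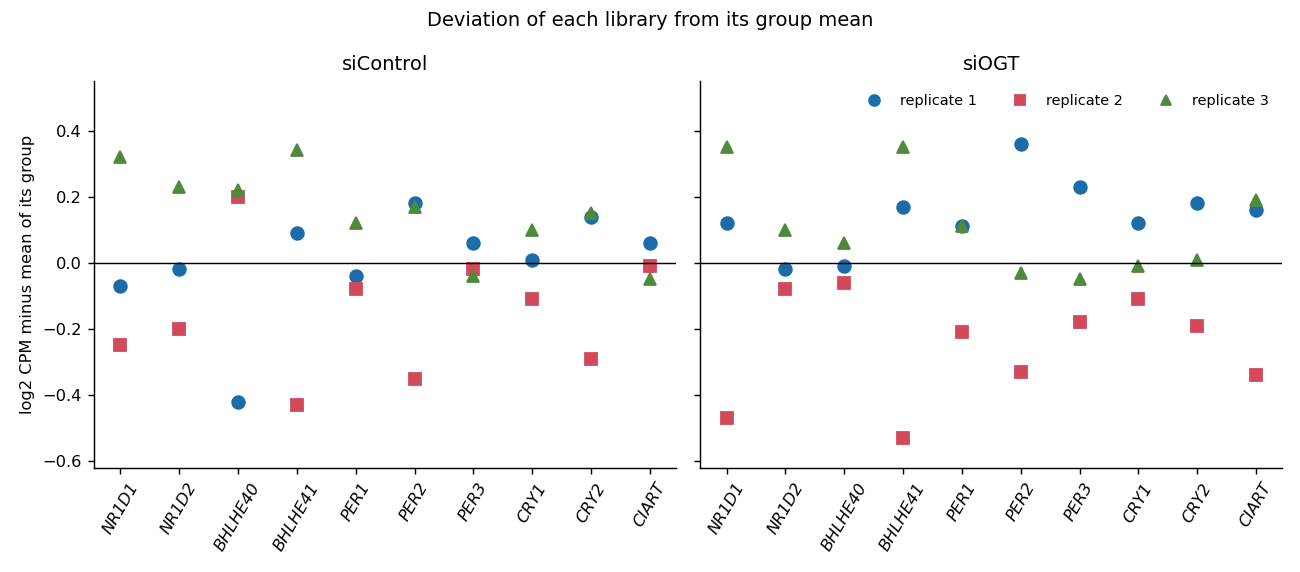
Deviation of each library from the mean log2 CPM of its own group, for each clock repressor gene, in siControl (left) and siOGT (right). Colour and symbol give the replicate number. Replicate 2 is lowest in both groups for 7 of the 10 genes, and replicate 1 is the lowest siControl library for BHLHE40.

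Levels of different genes were compared per length of transcript (as TPM, in which the 16352 genes with an annotated length sum to the same total in each library). With the Ensembl canonical transcript, the mean level in siControl was 155 for NR1D1, 52.4 for CRY1, 49 for BHLHE40, 33.6 for PER1, 32.9 for NR1D2, 25.5 for CIART, 25.0 for BHLHE41, 16.8 for PER3, 12.7 for PER2 and 9.86 for CRY2. Ranges over the 3 libraries kept NR1D1 apart from CRY1, BHLHE40 apart from PER1, and PER3 apart from PER2, whereas all other neighbours in this order overlapped. In siOGT the order began with NR1D1 at 479, followed by BHLHE41 at 64.1, CRY1 at 60.1, PER1 at 52.5 and BHLHE40 at 52.1, of which NR1D1 was apart from BHLHE41 and the following ones overlapped with each other. PER3, PER2 and CRY2 were the 3 lowest genes in both groups.

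The place of PER1 depended on the gene model. With the median length of coding transcripts, the measure chosen first, PER1 was taken as 589 bases long and headed the order in siControl at 153, ahead of NR1D1 at 88.7. The canonical PER1 transcript has 4676 bases, and 7 coding transcripts are annotated, several of them short. Between that median length and the canonical transcript, 4 pairs of genes changed order in siControl and 5 in siOGT, and between it and the longest transcript 5 pairs did in each group. The ratios between NR1D1 and NR1D2 and between BHLHE41 and BHLHE40 were not touched by this choice, since each of these genes has 1 annotated coding transcript.

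**Figure D4:**
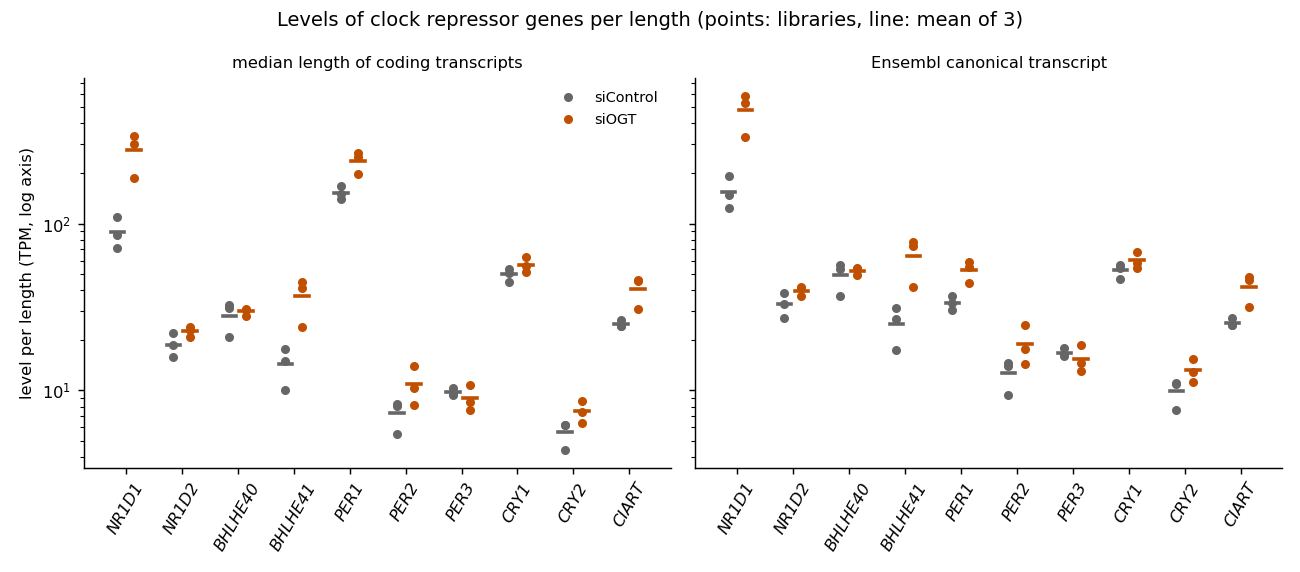
Level of each clock repressor gene per transcript length, in TPM on a log axis, with the median length of coding transcripts (left) and the canonical transcript (right). Points are libraries and lines the means of 3. PER1 moves from 153 to 33.6 in siControl between the length choices, whereas NR1D1 stays among the highest genes.

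The rest of the clock was then examined through 23 other genes, listed by function, of which 22 were in the files and 20 were tested. Of these 20, edgeR called 4 higher, 2 lower and 14 in neither direction, where 12.7% of all genes were called higher and 12.7% lower. The median log2 fold change was 0.04, against 0.01 over all genes. The list was written with earlier results of these data known.

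Activators of the clock were not called. CLOCK had a log2 fold change of 0.07 (95% confidence interval -0.07 to 0.21), BMAL1 of 0.21 (-0.02 to 0.43) and its paralog BMAL2 of -0.09 (-0.23 to 0.05). BMAL1, the best known target of NR1D repression, had 9.09, 8.56 and 10.4 CPM in siControl 1 to 3 and 11.3, 9.47 and 11.6 CPM in siOGT 1 to 3. These groups overlapped, and siOGT was higher in each pair. RORA, which activates through the elements that NR1D proteins bind, had a log2 fold change of 0.33 (-0.10 to 0.76) at about 2 to 3 CPM. NPAS2 and RORB had between 0 and 4 counts per library and did not pass the filter.

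Output transcription factors were called higher in 4 of 4 cases by edgeR with the replicate block, where 12.7% of all genes tested were. Since this list was written with earlier results known, nothing is read from that share. DBP, TEF and HLF encode PAR bZIP activators that bind D-boxes, and NFIL3 encodes a repressor that competes with them. TEF had 22.8, 29.0 and 29.8 CPM in siControl 1 to 3 and 36.5, 39.8 and 44.6 CPM in siOGT 1 to 3, with no overlap (log2 fold change 0.57, SE 0.076, edgeR adjusted p-value 4.045e-05). HLF was scarce, with 3, 2 and 16 counts in siControl and 20, 21 and 46 counts in siOGT. Its log2 fold change was 2.18 (SE 0.48, edgeR adjusted p-value 0.00299), and DESeq2 gave no adjusted p-value for it. DBP (0.31, edgeR adjusted p-value 0.021) and NFIL3 (0.27, 0.0159) changed less and overlapped between groups. DBP and NFIL3 lost their calls with DESeq2, without replicate 1 and without replicate 3, and all 4 lost them in edgeR without the replicate block.

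Of 7 tested genes for enzymes that modify PER and CRY proteins, or for partners that bind them, 6 were not called and 1 was called lower. Over all genes tested, 25.4% were called and 12.7% were called lower, so nothing is read from this count or the next. GSK3B, a kinase that phosphorylates several clock proteins, fell by 0.26 on the log2 scale (SE 0.064, edgeR adjusted p-value 0.00571), a call lost without replicate 1 and without the replicate block. The casein kinases CSNK1D and CSNK1E had log2 fold changes of 0.03 and -0.11. Of the 5 genes for the corepressor of NR1D proteins, 1 was called, namely TBL1X, which was lower (-0.19, edgeR adjusted p-value 0.0338). That call was lost with DESeq2, without replicate 1, without replicate 2, with library totals alone and without the replicate block. NCOR1 and HDAC3 were not called, with log2 fold changes of -0.12 and -0.09.

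**Figure D5:**
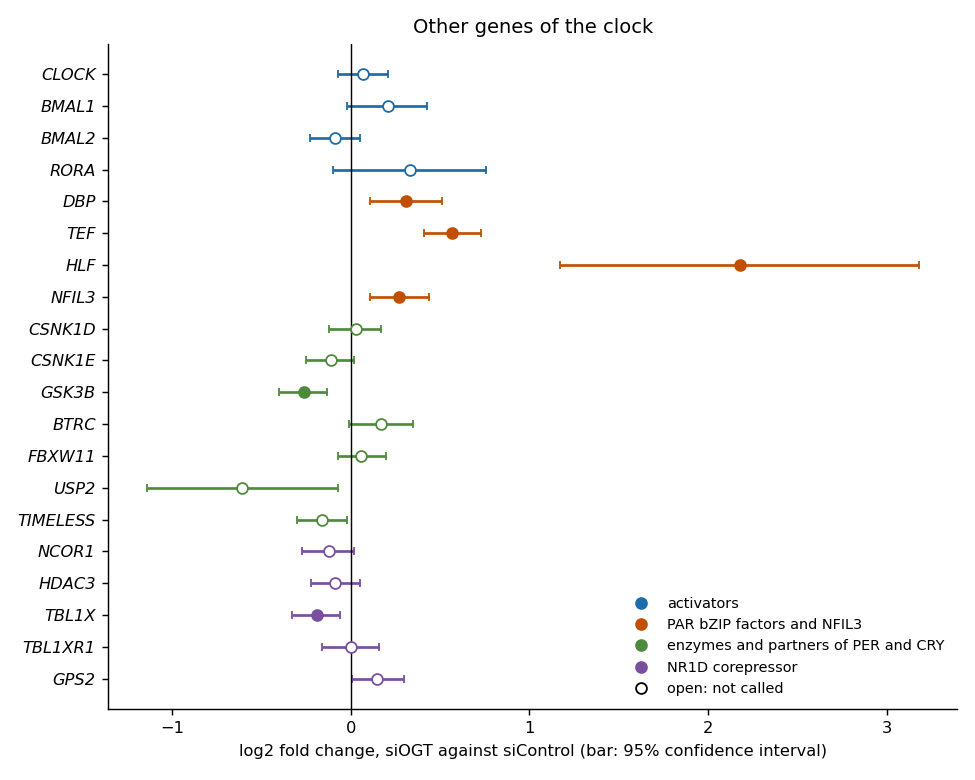
Log2 fold change of the 20 other clock genes tested, siOGT against siControl, with 95% confidence intervals from edgeR. Filled symbols are called genes and colours give the list. The 4 output factors lie right of 0, HLF with the widest interval, and the activators are not called.

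Genes whose pattern most resembled that of the receptors were finally listed, among 9610 other genes that averaged 10 CPM or more. Over the 6 libraries, Pearson's r with NR1D1 was 0.997 for NEU1, 0.996 for CYLD, 0.996 for GADD45B, 0.995 for SLC38A7 and 0.995 for MARK2. NEU1, a lysosomal sialidase, had 58.4, 56.9 and 65.2 CPM in siControl and 92.0, 76.5 and 94.4 CPM in siOGT. GADD45B, a stress-inducible gene, had 85.9, 80.5 and 99.0 CPM in siControl and 137, 115 and 150 CPM in siOGT. In these, replicate 2 was the lowest library of each group, as in NR1D1, while the fold changes were smaller.

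For NR1D2, r was 0.995 for RNF40, 0.993 for SRP68, 0.99 for BCAS2, 0.989 for INPP5E and 0.988 for TRIT1. Of these 5, TRIT1 was called between the groups (log2 fold change 0.31, edgeR adjusted p-value 0.0202), and it lost this call without replicate 1, without replicate 2, with DESeq2 and without the replicate block. The libraries behind these correlations share the group and the replicate number, and the genes were the highest of all those searched, so the values are descriptions.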

How the data were processed

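RNA-seq of 3 siControl and 3 siOGT libraries of LX-2 cells was analysed, grouped and numbered as in the labels. The authors enriched polyadenylated RNA by oligo-dT, sequenced both read ends, mapped reads to hg38 and counted them by strand, according to the study's methods. The submitters' processing notes name Bowtie2 2.3.5.1, RSEM 1.3.1 and DESeq2 1.36.0. The deposited values are RSEM expected counts, not normalized, in which a read matching several genes is divided between them, and 85.8% to 87.7% of values per library were exactly whole as written. A further deposited table holds the authors' comparison, with a mean normalized signal, log2 fold changes and adjusted p-values. It was not used.

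Expected counts were rounded, and 14853 of 16907 genes reached a total of 10 and were kept. TMM factors were 0.979 to 1.02. Genes were tested with edgeR 4.0.16 in R 4.3.3 (quasi-likelihood F, two-sided, replicate block), with Benjamini-Hochberg adjustment over all genes tested. SE and 95% confidence intervals were derived from the F statistic, and pair ratios used a prior count of 2. That statistic uses a variance moderated across all genes tested (prior degrees of freedom 15.5), so these intervals do not give the spread over the pairs. For CIART, the pair ratios were 0.75, 0.31 and 0.89 on the log2 scale, and the interval was 0.46 to 0.86. The test was tried on simulated data. DESeq2 1.42.0 was an alternative, as were other scalings, filters, leaving out each pair and omitting the block.

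The study pairs samples of one replicate. Deviations from group means correlated between same-numbered libraries by 0.69, 0.53 and 0.33, across 12373 genes, which are not independent replicates. Libraries of a group differed by more than counting noise, with a chi-square per degree of freedom of 19.4 to 37.9.

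Members and gene lists were chosen with earlier results of these data known. Named genes are the members, OGT, called genes of the other clock lists (up to 3 largest per list), genes overlapping a member's exons, and the 5 genes averaging 10 CPM or more that correlate best with NR1D1 and with NR1D2. Some genes of the clock lists are not reported here. Other genes named with values were chosen after their values were seen. GENCODE 44 (hg38) gave positions and lengths for 96.7% of symbols, and RefSeq the promoter sequences of all 10 members. The methods name a GENCODE annotation whose release is not clear, so gene models behind the counts may differ.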

Additional observations from a re-analysis of the deposited data

How the results depend on the processing

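NR1D1 (log2 fold change 1.49 to 1.68), BHLHE41 (at least 1.28) and PER1 (0.53 to 0.67) kept their direction and call, and PER3 (-0.25 to -0.085) stayed uncalled, under all 10 alternatives. The alternatives reuse the libraries whose contrast was known when the genes were chosen, so this describes the processing alone. DESeq2 without the block, and the canonical transcript length, were chosen after seeing the data.

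The replicate block mattered most. Without the replicate block, edgeR called 3 of the 10 repressor genes (3 higher) and 0 of the other clock genes, and 130 genes in all, and DESeq2 called 4 (4 higher), 1 and 849. NR1D2 (0.24 with either tool), PER2 (0.55 with edgeR, 0.54 with DESeq2) and CRY2 (0.39 with either) then lost their calls, and CIART (0.67) lost it with edgeR. The cause was not tested. With the stricter threshold of 0.01, 6 of the 10 and 2083 of all genes were called. DESeq2 with the block called 2 other clock genes and 2415 genes in all. By replicate number it called 3 repressor genes, a count given without its share over all genes.

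Leaving out 1 pair gave 6 to 8 repressor genes called, 6 to 8 higher, with 1803 to 3439 genes called in all. Other clock genes called numbered 2 to 5, the 2 being without replicate 1. Variances in these fits leaned mostly on all genes, with prior degrees of freedom of 24.2 without replicate 1 and 14 without replicate 3. Without replicate 2 they were infinite, so that calls kept here say little about agreement between replicates. Under these omissions NR1D2 ranged from 0.19 to 0.31, BHLHE40 from -0.13 to 0.2, CRY1 from 0.11 to 0.22, CSNK1D from -0.046 to 0.083 and TBL1XR1 from -0.068 to 0.071. TBL1XR1 was also at -0.0013 with median-ratio size factors, -0.0014 with DESeq2 and -0.0019 with DESeq2 without the block. Scaled by library totals alone, 2113 genes were called higher and 1614 lower. The order of levels per length differed, in siControl, in 5 gene pairs with the longest transcript and 4 with the canonical one, and in siOGT in 5 with either.

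With 3 libraries per group, HLF at 2 to 46 counts had the least precise log2 fold change of those given (SE 0.48).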
